A study of Homo sapiens with 6 samples.

Results

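Expression of LCP2, which encodes the adaptor SLP-76, and of the genes that work with it in antigen receptor signalling was examined in K562 cells exposed to calactin. The members were the probe sets of the array whose platform symbol is LCP2, LAT, LAT2, GRAP2, VAV1, PLCG1, PLCG2, CD3D, SYK or BTK alone, and all probe sets of a gene were kept. They came to 23 of the 54613 probe sets tested and covered 9 of the 10 genes, and 9 of the 19775 genes with a probe set of their own. GRAP2, which encodes the adaptor Gads, was not analysed here.

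K562 is an established human cell line from chronic myeloid leukaemia in which the fused kinase BCR-ABL1 is active. Calactin is a cardenolide, a plant steroid of a class that inhibits the sodium pump. One group of 3 arrays held RNA of K562 cells given calactin for 12 h, at a dose the labels state as 0.15 mM, and the other group of 3 arrays held RNA of cells with no agent at the same time. Cells of both groups were grown in the same serum-containing RPMI medium. The labels describe the arrays of a group as biological replicates and do not say more about how the cultures were separated, so the spread given here is that between these samples.

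In lymphocytes, an antigen receptor passes its signal through short tyrosine motifs (ITAMs) on subunits such as CD3-delta. Kinases of the SYK family bind the phosphorylated motifs and phosphorylate scaffolds such as LAT, and SLP-76, held to LAT through Gads, then brings VAV1, phospholipase C-gamma and a TEC family kinase together. SLP-76 is also used in platelets, mast cells and other blood cells that signal through ITAM receptors.

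LCP2 had been singled out because it was among the strongest falls on these same arrays and because its probe sets differed, and the other members were gathered around it with results of this comparison known. Member values below therefore describe the arrays and are not a test of a change in the set. Intensities are the authors' deposited linear values. Differences are calactin minus untreated on the scale log2(intensity + 16), which understates the change of dim probe sets, with the standard error (SE) of a limma fit to all 54613 probe sets. Folds are taken from these differences and not from the intensities themselves. A probe set is called when its adjusted p (Benjamini-Hochberg over all of them) is under 0.05, and "rose" and "fell" are kept for such calls. The array medians were 31.2 to 32.1 with calactin and 33.1 to 34.4 without, and a probe set under the median of its array is described as dim.

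LCP2 fell on the 2 brightest of its 6 probe sets. Probe set 205269_at read 416, 331 and 501 in untreated replicates 1, 2 and 3 and 35.9, 19.2 and 43.4 in calactin replicates 1, 2 and 3. The untreated arrays all lay far above the array median, the calactin arrays lay around it, and the groups did not overlap. The difference was -3.16 ± 0.23 (log2, SE, n = 3 per group), an 8.94-fold fall, and it was -3.06, -3.30 and -3.12 between arrays of the same replicate number. The ratio of the untreated to the calactin mean of the intensities themselves was 12.7. With a pseudocount of 1 the difference was -3.68 and with 64 it was -2.30, so the size depends on how the dim calactin values are treated. Since RNA was taken from whole cultures, fewer cells with the transcript and less transcript per cell cannot be told apart.

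Probe set 205270_s_at, whose suffix marks sequence shared between transcripts, read 255, 173 and 278 in the untreated arrays and 37.2, 20.4 and 29.6 in the calactin arrays. It differed by -2.47 ± 0.22, a 5.54-fold fall on the scale with the pseudocount, again with no overlap of the groups. The ratio of the untreated to the calactin mean of its intensities was 8.09. Both probe sets ordered the arrays alike in part: replicate 2 was the lowest of its group on each.

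The other 4 LCP2 probe sets were dim on nearly every array. Probe set 244598_at read 39.8, 35.6 and 30.5 in untreated and 23.6, 17.4 and 10.5 in calactin arrays, and its groups did not overlap, at -0.65 ± 0.20. On 244251_at the untreated arrays read 23.2, 15.4 and 21.0 and the calactin arrays 11.6, 11.8 and 6.69, at -0.46 ± 0.17. On 244578_at the difference was -0.31 ± 0.17. These 3 had the sign of the bright pair and no overlap between groups, but none was called. The dimmest, 244556_at, read 2.73 to 8.50 in untreated arrays and at most 10.6 in calactin arrays, and its groups overlapped. The mean of all 6 probe sets put LCP2 at -1.18, so averaging over the dim probe sets shrinks the fall from the -3.16 of 205269_at. Where in the gene each probe set lies was not analysed here.

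**Figure D1:**
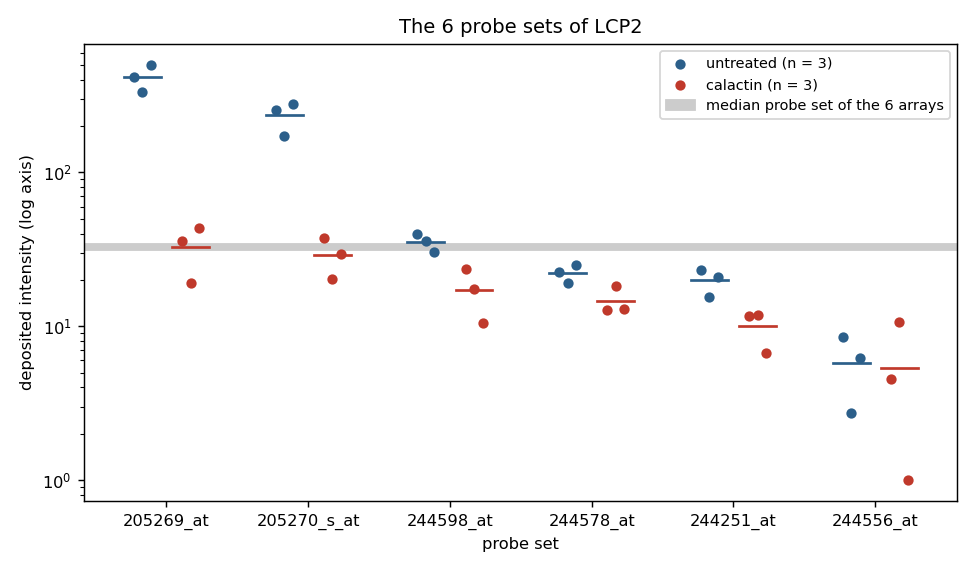
Deposited intensity (log axis) of the 6 LCP2 probe sets, with 1 point per array, a bar at each group mean and a grey band over the range of the array medians. The untreated arrays stand clear of the calactin arrays on 205269_at and 205270_s_at, while the other 4 probe sets lie at or under the band, apart from 2 untreated arrays of 244598_at just above it.

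The membrane scaffolds that SLP-76 works with read at most 80.5 on any array. LAT, which recruits Gads and phospholipase C-gamma in T cells, read 44.6, 39.7 and 37.7 in untreated and 44.0, 50.4 and 41.2 in calactin arrays on 209881_s_at, and its groups overlapped at 0.11 ± 0.17. Its other probe set, 211005_at, differed by 0.43 ± 0.23, with 15.0 in untreated replicate 3 as its lowest array. LAT2, the related scaffold of B cells and myeloid cells, read 71.5 to 80.5 in untreated and 54.8 to 79.7 in calactin arrays on 221581_s_at. Neither LAT2 probe set was called, at -0.14 ± 0.17 and -0.08 ± 0.18.

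CD3D, which encodes the CD3-delta subunit of the T cell receptor complex, was bright in K562. Its only probe set, 213539_at, read 2157, 2550 and 2283 in untreated and 1667, 1634 and 1809 in calactin arrays. The groups did not overlap, and CD3D fell by 0.45 ± 0.08 (log2, SE), or 1.36-fold. The call was lost under hybridisation spike scaling (-0.35), with variance estimates without a trend (adjusted p = 0.0536 by limma) and in replicates 1 and 2 alone, and the difference was 0.12 under poly-A spike scaling. The other CD3 complex genes gave little signal. CD3E read 28.1 to 63.9 over the 6 arrays, CD3G 12.4 to 33.0, and CD247, which encodes the zeta chain, at most 2.17. Of 9 T cell markers, a list that holds CD3E and CD3G, 4 lay under the array median on every array and none lay above it on every array. Their summed intensity was 169 to 207 in untreated and 202 to 229 in calactin arrays. Of the 8 measured markers of the erythroid line, by contrast, all 8 lay above the median on every array, and 3 of them were called and are named for that. TAL1, a transcription factor of early blood cells, rose by 0.92 ± 0.10 (adjusted p = 7.54e-04) and was called under all 19 alternatives run for it. TFRC, the transferrin receptor, fell by 0.55 ± 0.07 (adjusted p = 9.73e-04), but lost its call under hybridisation spike scaling and stood at 0.02 under poly-A spike scaling. GATA1, the erythroid transcription factor, fell by 0.86 ± 0.18 (adjusted p = 0.0121) and was called in 13 of 20 alternatives. It lost its call under hybridisation spike scaling, under poly-A spike scaling (-0.30), in replicates 1 and 2 alone, and without calactin replicate 1, calactin replicate 3, untreated replicate 1 or untreated replicate 2.

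Some markers of other blood cells that use SLP-76 or its partners gave signal above the array median. Above the array median on every array were 1 of 6 B cell markers, 2 of 7 macrophage or granulocyte markers, 4 of 6 megakaryocyte or platelet markers and 2 of 5 mast cell markers. The share of all genes that did so was not counted. By a looser rule, at least 1 group mean above the median signal, 12979 of the 19775 genes passed, LCP2 left aside. Nothing about cell types is read from the marker counts. The summed intensity of the macrophage or granulocyte markers was 946 to 1021 in untreated and 753 to 922 in calactin arrays, and that of the megakaryocyte or platelet markers 479 to 553 and 421 to 474. LYZ alone made up most of the macrophage or granulocyte sum, at 793 to 821 in untreated and 590 to 760 in calactin arrays, and was not called. The summed intensity was 242 to 317 and 241 to 292 for the B cell list, and 238 to 261 and 214 to 254 for the mast cell list. KIT, the receptor of stem cell factor and a mast cell marker, is named because it was the marker called in these lists. It read 106, 105 and 102 in untreated and 40.0, 70.5 and 44.7 in calactin arrays and fell by 0.86 ± 0.19 (adjusted p = 0.0189). It was called in 11 of 19 alternatives (highest adjusted p = 0.214) and no longer passed under hybridisation spike scaling, under poly-A spike scaling, in replicates 1 and 2 alone, or without any single array other than calactin replicate 2. The part of these markers in the member differences was not tested.

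Both kinase genes had a called probe set, with the larger difference for BTK. BTK, the TEC family kinase of B cells and myeloid cells, read 504, 643 and 585 in untreated and 252, 267 and 290 in calactin arrays on 205504_at. Every calactin array lay well below every untreated array, and BTK fell by 1.05 ± 0.12, or 2.07-fold. SYK, the kinase that binds phosphorylated ITAMs, read 257, 239 and 278 in untreated and 185, 174 and 193 in calactin arrays on 226068_at, its brightest probe set. The groups did not overlap, and SYK fell by 0.45 ± 0.11 on it. SYK no longer passed when any single array other than untreated replicate 2 was left out, though the difference stayed between -0.48 and -0.40. The other 3 SYK probe sets were not called, at -0.19 ± 0.15 for 207540_s_at, -0.24 ± 0.16 for 209269_s_at and 0.05 ± 0.29 for the dim 244023_at. With the mean of its 4 probe sets SYK stood at -0.21 and was not called.

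Among the effectors that SLP-76 brings together, PLCG1, which encodes phospholipase C-gamma1, read 427, 369 and 360 in untreated and 264, 233 and 253 in calactin arrays on 202789_at. The groups did not overlap, and the difference was -0.59 ± 0.11, a 1.51-fold fall. The second PLCG1 probe set, 216551_x_at, read 287, 221 and 227 against 249, 189 and 231, with overlapping groups and a difference of -0.12 ± 0.15. With the mean of both probe sets PLCG1 stood at -0.36 and was not called (adjusted p = 0.0716 by limma). PLCG2, the isoform that B cells and myeloid cells use most, read 129, 77.5 and 109 in untreated and 106, 101 and 71.8 in calactin arrays on 204613_at, and its 4 probe sets, 3 of them dim on all arrays, were not called. VAV1, an exchange factor for RAC proteins, read 309, 202 and 269 in untreated and 208, 140 and 187 in calactin arrays. Its groups overlapped, because untreated replicate 2 lay below calactin replicate 1, and it was not called at -0.50 ± 0.19. With the replicate number as a block VAV1 was called (adjusted p = 0.00792 by limma), and the differences within the numbers were -0.54, -0.48 and -0.49. It was also called when dim probe sets were left out, and stood at 0.02 under poly-A spike scaling.

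**Figure D2:**
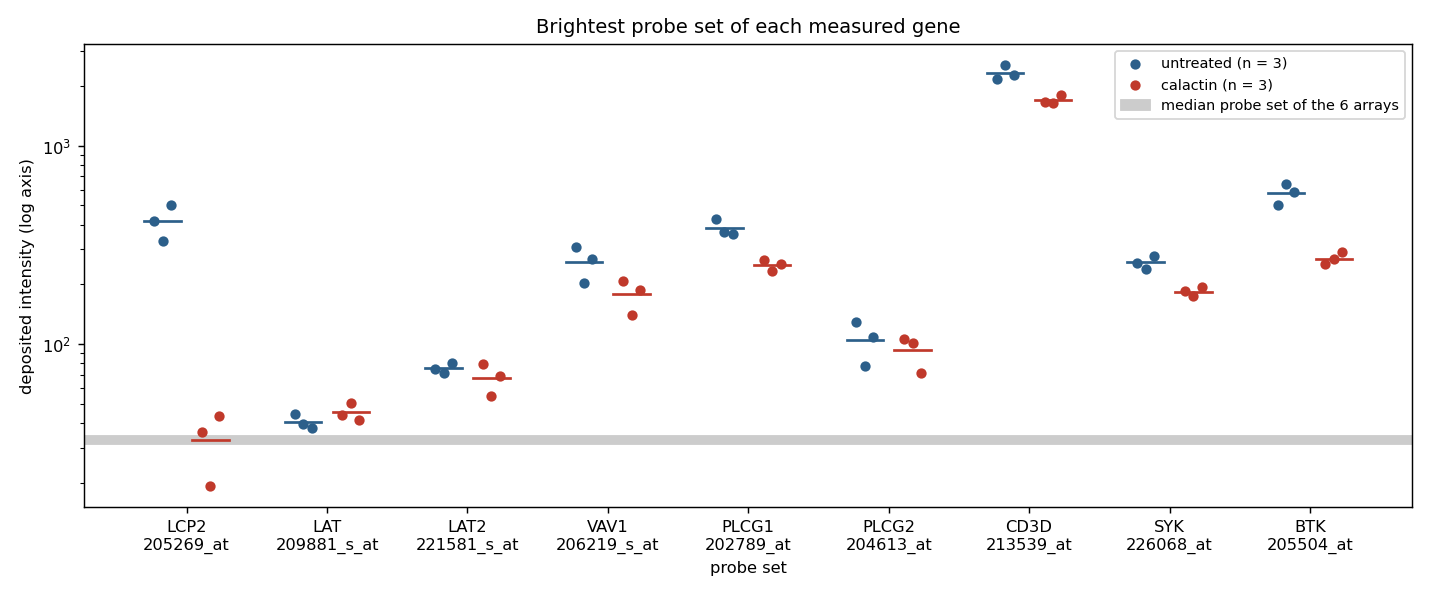
Deposited intensity (log axis) of the brightest probe set of each of the 9 measured genes, with 1 point per array, a bar at each group mean and a grey band over the range of the array medians. LCP2 goes from 331 to 501 in untreated arrays to 19.2 to 43.4 with calactin, BTK from 504 to 643 down to 252 to 290, and the groups of LAT, LAT2, VAV1 and PLCG2 overlap.

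In all, 6 of the 23 member probe sets were called, and each of them was lower with calactin. Of all 54613 probe sets, 13.9% were called, 10.3% lower and 3.68% higher. The groups of arrays did not overlap for 11 of the 23, against 28.4% of all probe sets. Since the members were chosen on this comparison, nothing is read from these counts. The 6 calls came from 5 genes, and the member genes without one were LAT, LAT2, VAV1 and PLCG2. Of the 23, 11 lay above the array median on all 6 arrays, and the median difference over all probe sets was -0.05.

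**Figure D3:**
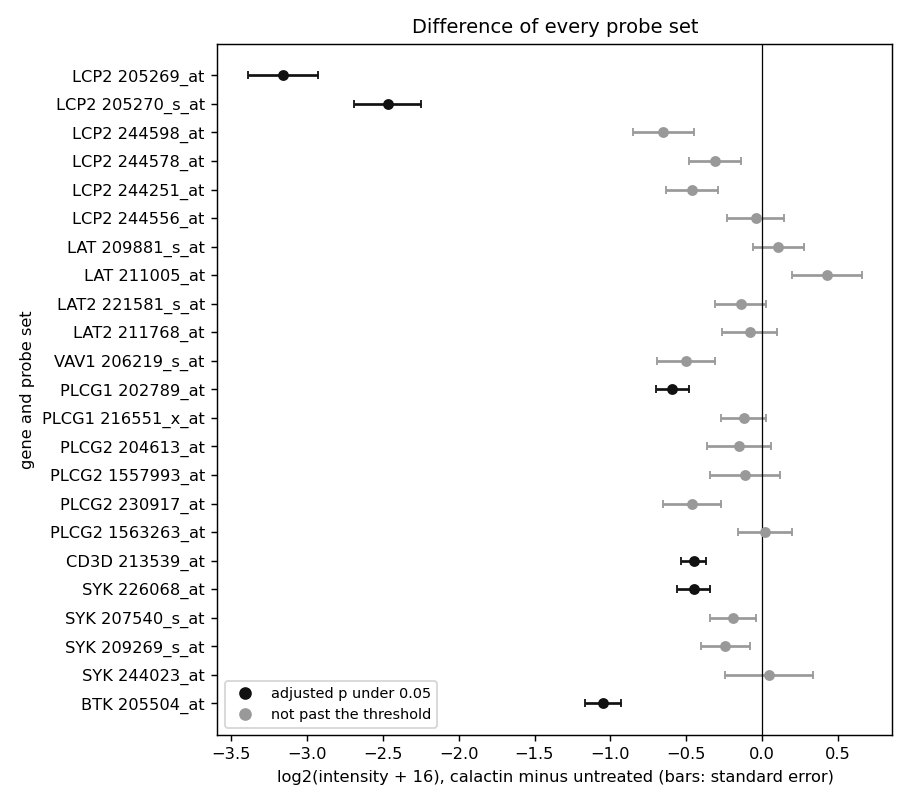
Difference on the log2(intensity + 16) scale (calactin minus untreated) of each of the 23 probe sets, with the SE as a bar and calls in black. The pair of bright LCP2 probe sets, at -3.16 and -2.47, stands apart from BTK at -1.05 and from the rest, which lie between -0.65 and 0.43.

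The scale of the arrays bears on the smaller member differences. Scaling to the poly-A spikes, control transcripts added to the RNA, with the replicate block moved the median of all probe sets from -0.05 to 0.25. The shift was not the same for all probe sets. CD3D moved from -0.45 to 0.12, more than the median did. Of the dim LCP2 probe sets, 244598_at moved from -0.65 to -0.39 and 244556_at the other way, from -0.04 to -0.25. On that scale LCP2 205269_at was at -2.49, 205270_s_at at -1.90 and BTK at -0.49, all still called, while CD3D was at 0.12, SYK 226068_at at 0.07 and PLCG1 202789_at at -0.05, none of them called. PLCG1 216551_x_at was called higher there, at 0.40. Both arrays numbered 3 had poly-A spike signals of 83.4 and 112, where the others had 887 to 1896. In replicates 1 and 2 alone, 1619 of all probe sets were called, beside 7611 on all arrays. LCP2 was then at -3.18 and -2.36 and BTK at -1.09, all 3 called. The calls of PLCG1 (-0.65), CD3D (-0.50) and SYK (-0.43) were lost, though on all arrays their differences were -0.59, -0.45 and -0.45. Quantile normalization also ended the calls of PLCG1 and SYK, and median centring that of SYK.

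**Figure D4:**
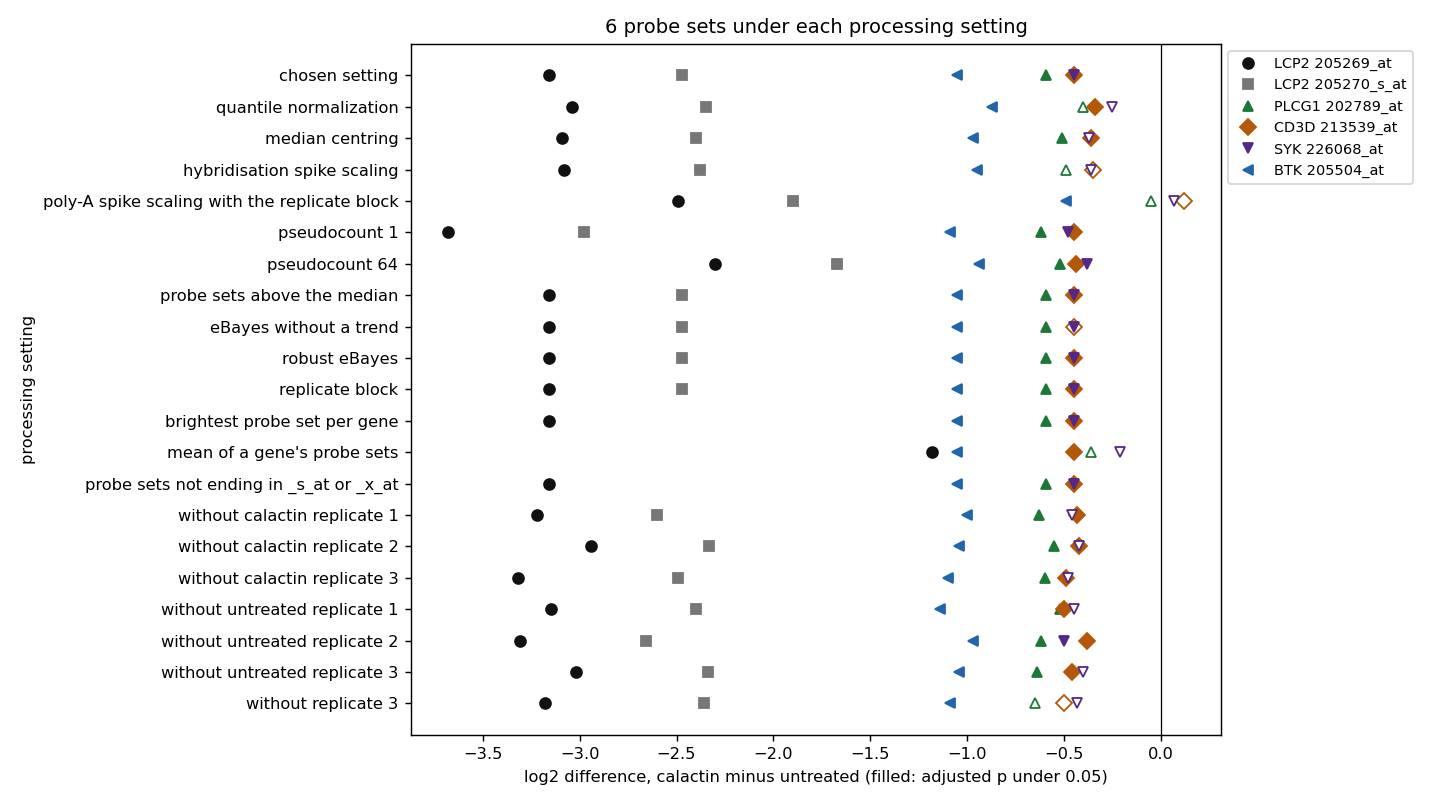
Log2 difference of the 6 called probe sets under each processing setting, with filled symbols where the adjusted p was under 0.05. LCP2 and BTK lie left of 0 and are filled under every setting that could be run, whereas PLCG1, CD3D and SYK lose their calls under hybridisation spike scaling and lie near 0 under poly-A spike scaling.

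Upstream sequence was set beside the values for LCP2 and BTK, the members with the largest falls, and for CD3D, whose signal lay far above the array median. The 250 bases before the RefSeq start site are shown on the gene's strand (GRCh38.p14) at chr5:170297778-170298027 for LCP2, chrX:101390797-101391046 for BTK (the upstream one of 2 listed start sites) and chr11:118342706-118342955 for CD3D, all on the minus strand. Capitals mark matches, on either strand, to an ETS motif spelled GGAAGT, a RUNX-like motif spelled TGNGGT or a GATA motif. The RUNX core has T or C where this spelling has N (any base), so the search was wider than that core. The GATA motif was spelled with a first letter A as AGATAA or else AGATAG. With a first letter T it was spelled TGATAA or else TGATAG. Motifs of AP-1 (letters TGANTCA) and of EGR factors (letters GCGTGGGCG) were searched too. No matches overlapped in these windows.
LCP2: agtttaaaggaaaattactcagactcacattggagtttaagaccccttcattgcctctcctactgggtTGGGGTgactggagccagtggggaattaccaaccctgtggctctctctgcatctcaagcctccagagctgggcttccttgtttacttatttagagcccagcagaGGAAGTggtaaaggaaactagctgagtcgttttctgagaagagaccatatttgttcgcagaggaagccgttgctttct
BTK: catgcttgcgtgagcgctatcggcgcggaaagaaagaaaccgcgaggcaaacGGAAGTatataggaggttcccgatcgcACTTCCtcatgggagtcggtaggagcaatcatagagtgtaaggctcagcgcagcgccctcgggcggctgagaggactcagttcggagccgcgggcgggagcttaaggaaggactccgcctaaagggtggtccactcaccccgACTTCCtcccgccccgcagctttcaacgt
CD3D: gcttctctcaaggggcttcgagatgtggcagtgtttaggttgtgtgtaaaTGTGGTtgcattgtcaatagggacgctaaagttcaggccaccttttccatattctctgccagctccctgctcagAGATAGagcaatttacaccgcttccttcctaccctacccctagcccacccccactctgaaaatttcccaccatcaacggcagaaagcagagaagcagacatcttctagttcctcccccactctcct
LCP2 held 1 ETS match, 78 bases before the start, and 1 RUNX-like match at 182 bases, with G at the N and so outside the RUNX core. BTK held 3 ETS matches, at 198, 171 and 29 bases before the start. CD3D held 1 RUNX-like match at 200 bases, with T at the N, and 1 GATA match at 126 bases. With AGATAA as the sole GATA spelling, which 9.2% of windows held, CD3D had no match. The window of BTK's other start site, not shown, held 3 GATA matches, at 185, 174 and 94 bases. It also held 1 RUNX-like match at 12 bases, with G at the N. No AP-1 or EGR letters were found in the 3 windows shown, and no GATA letters in those of LCP2 and BTK. Among members without a call, VAV1 held an ETS match at 9 bases and a RUNX-like match at 109 bases, and PLCG2 an ETS match at 90 bases. LAT held no ETS match at its 2 start sites, but an AP-1 match at 78 bases of the first and RUNX-like matches at both. For LAT2 no window was available. The window of PLCG1, which had a call, held no match to any of the motifs. SYK, which also had a call, has 3 listed start sites. The first held a RUNX-like match at 79 bases, the second ETS matches at 80 and 48 bases, and the third no match. Of 35116 windows of the same length in the table, 19.5% held the ETS motif, 37.7% the wide RUNX-like spelling, 22.3% the GATA motif, 6.6% the AP-1 motif and 0.7% the EGR motif. A match is a description of the letters and does not show that a factor binds.

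The other genes of antigen receptor signalling were taken by role, each by its brightest probe set. Of 80 measured genes, 19 fell and 2 rose. Of all 19775 genes, 15.2% were called lower and 4.41% higher, or 19.6% in all. The median difference of the 80 was -0.11, beside -0.06 for all genes. With the replicate block 26 of the 80 were called, and in replicates 1 and 2 alone 10 were. Calls over all probe sets moved the same way, from 7611 to 9908 and to 1619, so these counts are not to be set against the 19.6%. Poly-A spike scaling, run with the replicate block, called 11966 of all probe sets, only 11.6% of them lower. Nothing is read from the counts by role under that setting.

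Among 25 other adaptors, 5 fell and 20 did not pass the threshold (median -0.08). With the replicate block 7 were called lower and 1 higher. SH2D2A, which encodes the T cell adaptor TSAd, read 533, 567 and 567 in untreated and 185, 177 and 192 in calactin arrays and fell by 1.51 ± 0.09 (adjusted p = 1.25e-04, limma). DOK1, a substrate of ABL and other tyrosine kinases, read 208 to 217 in untreated and 43.8 to 66.9 in calactin arrays and fell by 1.65 ± 0.16 (adjusted p = 3.82e-04). THEMIS2, a relative of the T cell protein THEMIS, fell by 1.77 ± 0.18, and NCK2, which links receptors to actin, by 1.08 ± 0.12. Each of these 4 was called under every alternative in which it was measured, poly-A spike scaling included, where SH2D2A was at -0.95, DOK1 at -1.08 and NCK2 at -0.51. The fifth, DOK3, is named because it completes the count. It fell by 0.66 ± 0.17, was called in 9 of 19 alternatives (highest adjusted p = 0.582), and no longer passed when calactin replicate 1, calactin replicate 2, untreated replicate 2 or untreated replicate 3 was left out. Under poly-A spike scaling 4 adaptors were called lower and 7 higher, while most calls over all probe sets were higher there. Adaptors called higher numbered 2 under quantile normalization and median centring, and 1 with robust variance estimates, with dim probe sets left out and without calactin replicate 2. BLNK, the counterpart of SLP-76 in B cells, read 4.08 to 13.1 over the 6 arrays and was dim on all of them.

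Of 24 downstream effectors, 9 fell, 2 rose and 13 did not pass (median -0.27). PRKCQ, the protein kinase C of the T cell synapse, read 520, 572 and 546 in untreated and 137, 142 and 133 in calactin arrays and fell by 1.87 ± 0.10 (adjusted p = 8.93e-05). RAC2, the blood cell form of the RAC GTPases that VAV1 activates, read 3208, 2864 and 3068 against 1257, 1183 and 1212 and fell by 1.31 ± 0.07 (adjusted p = 1.08e-04). In both genes the arrays of a group lay close together and far from the other group, and RAC2 was at -0.74 under poly-A spike scaling. BCL10, which carries signals from protein kinase C to NF-kB, fell by 0.66 ± 0.08, and ITPR3, a calcium channel opened by the product of phospholipase C, by 1.04 ± 0.13. BCL10 missed the threshold under hybridisation spike scaling (-0.57) and poly-A spike scaling (-0.10), and ITPR3 with the mean of its probe sets (-0.37) and in replicates 1 and 2 alone (-1.07). The 2 that rose were SOS1 and SOS2, exchange factors for RAS that GRB2 carries, named here after their values were seen. SOS1 read 344, 379 and 441 in untreated and 669, 726 and 820 in calactin arrays, at 0.90 ± 0.12 (adjusted p = 0.00166), and SOS2 was at 0.52 ± 0.12 (adjusted p = 0.0227). With the mean of their probe sets neither was called (SOS1 0.40, adjusted p = 0.0501, and SOS2 0.19, adjusted p = 0.360), and SOS2 also missed the threshold under hybridisation spike scaling, in replicates 1 and 2 alone, and when calactin replicate 2, calactin replicate 3, untreated replicate 1 or untreated replicate 2 was left out. Under poly-A spike scaling the effectors gave 3 lower and 5 higher genes, under hybridisation spike scaling 4 and 1, and in replicates 1 and 2 alone 3 and 1.

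Of 10 receptor subunits with ITAMs, 9 did not pass and FCGR2A, an activating Fc receptor, fell, from 1854, 1924 and 2087 to 1003, 745 and 1131, at -1.03 ± 0.14 (adjusted p = 0.00195). It stood at -0.55 with the mean of its probe sets and at -0.46 under poly-A spike scaling, both called. With robust variance estimates, or with dim probe sets left out, 2 receptor genes were called lower, and under poly-A spike scaling 1 was lower and 1 higher. Of 10 measured proximal kinases, LYN and FYN, both SRC family kinases, fell by 0.45 ± 0.10 and 0.55 ± 0.15 (adjusted p = 0.0155 and 0.0450). LYN read 2449 to 2932 in untreated and 1777 to 2125 in calactin arrays. It missed the threshold when calactin replicate 2, calactin replicate 3 or untreated replicate 3 was left out, under hybridisation spike scaling (-0.35) and with variance estimates without a trend, and its difference was 0.12 under poly-A spike scaling. With the replicate block 3 kinase genes were called lower, and under hybridisation spike scaling or without the trend LYN and FYN both lost their calls. FYN missed it when any single array other than untreated replicate 1 was left out, and in 12 of 19 alternatives in all. The 2 kinases also lost their calls together in replicates 1 and 2 alone. LCK and ZAP70, the kinases of the T cell receptor, did not pass, and LCK was dim on every array, at 4.35 to 17.5. Under quantile normalization and median centring 1 kinase gene was called lower and 1 higher, and under poly-A spike scaling 1 was called higher.

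Of 11 measured negative regulators, 2 fell. PTPRC, the phosphatase CD45 that acts on SRC family kinases, read 1580, 1478 and 1805 in untreated and 803, 759 and 892 in calactin arrays and fell by 0.97 ± 0.10 (adjusted p = 5.47e-04). It stood at -0.46 with the mean of its probe sets and at -0.40 under poly-A spike scaling, both called. INPP5D, the phosphatase SHIP1, fell by 1.01 ± 0.17 (adjusted p = 0.00430), and missed the threshold when its probe sets were averaged (-0.39), under poly-A spike scaling (-0.58) and in replicates 1 and 2 alone (-0.88). Under poly-A spike scaling 1 regulator was called lower and 2 higher.

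**Figure D5:**
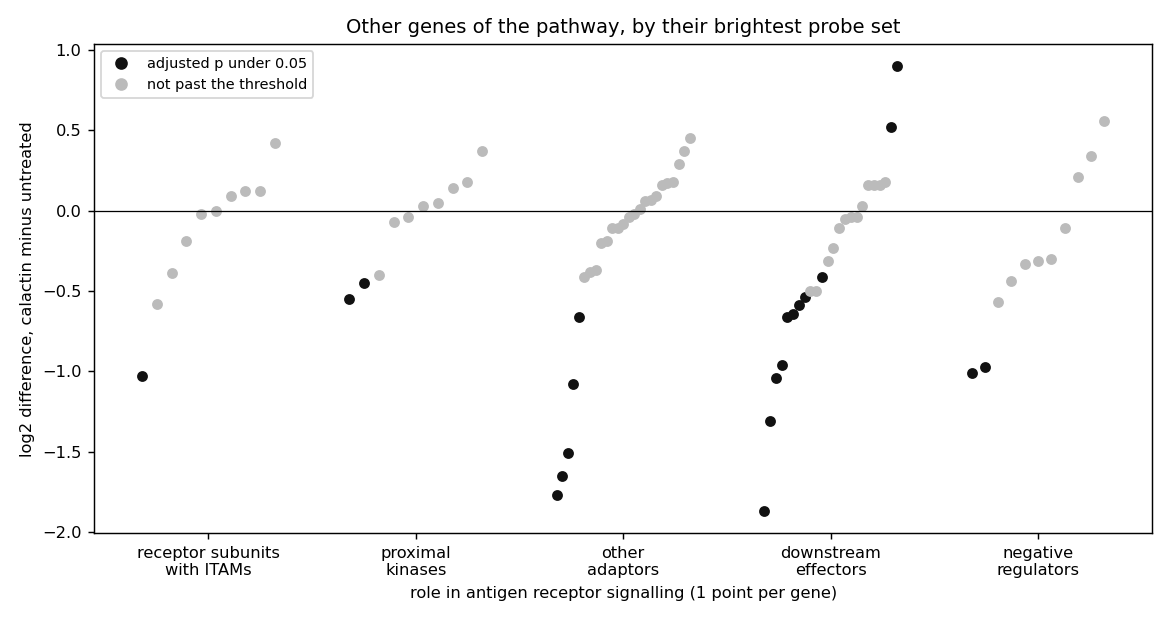
Log2 difference (calactin minus untreated) of the 80 measured pathway genes, 1 point per gene by its brightest probe set, grouped by role, with calls in black. The lowest points are PRKCQ at -1.87, THEMIS2 at -1.77 and DOK1 at -1.65, and the 2 black points above 0 are SOS1 and SOS2.

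The genes whose pattern over the 6 arrays lay nearest to that of LCP2 205269_at were searched among 12979 genes with at least 1 group mean above the median signal. The measure was the root mean square difference of log2 profiles, each centred on its own mean. MYCL, a relative of MYC, was nearest at 0.23, then HK2, a hexokinase, at 0.26, NRROS at 0.30, and SUSD3 and RCSD1 at 0.31 each. Their Pearson correlations with LCP2 over the 6 arrays, which share the 2 groups and so are no test, were 0.990 to 0.999. SUSD3 read 273, 251 and 307 in untreated and 36.5, 21.8 and 43.9 in calactin arrays, and RCSD1 read 996, 723 and 990 against 165, 98.0 and 160.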

How the data were processed

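Trizol was used to extract total RNA of 6 K562 samples, and biotin-labelled cRNA was hybridised to 1-colour Affymetrix arrays, per the labels' protocols. The authors deposited 1 linear intensity per probe set and array. How probes were summarised and scaled is not given in the sources used here. Of 54675 probe sets, 62 array controls were left out of the fit. Genes were named from the platform annotation, in which 41091 probe sets carry 1 symbol, 1801 several and 11721 none, and an update through the gene identifier changed 0 symbols. No member symbol stood on a probe set with several symbols.

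Intensities were turned into log2(intensity + 16) with no further scaling. limma 3.58.1 (lmFit, eBayes with a trend) in R 4.3.3 tested calactin against untreated arrays (3 each, two-sided), with Benjamini-Hochberg adjustment over all 54613 probe sets. The fit was also run on simulated data with noise drawn independently for each array. That run left out the pairing of replicate numbers given below, so it does not gauge error rates on these arrays. Precision is limited by the number of arrays, which leaves 4 residual degrees of freedom. A pathway gene was read from its probe set with the highest mean. Pathway genes were named as up to 4 called genes of smallest p per list, besides those said to be named after their values were seen. Members, lists and the naming rule were chosen with earlier results of these data known.

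Replicate numbers come from the sample titles. Deviations from the group means correlated at 0.415, 0.325 and 0.240 between arrays numbered 1, 2 and 3 over 27305 probe sets, which was taken to pair same-numbered arrays. The chosen fit left this pairing out, so its SEs and calls ignore it. With the replicate block, run as an alternative, 9908 probe sets were called where the chosen fit called 7611. Promoter windows are RefSeq's (GRCh38.p14). The 3 windows shown and the motifs were chosen after the values were seen, and the GATA search was run both with 4 spellings and with 1. Plots used matplotlib 3.10.9. Alternatives covered scaling, pseudocount, filter, variance model, replicate block, gene summary, shared probe sets and each array left out. Replicates 1 and 2 alone were added after seeing the data.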

Additional observations from a re-analysis of the deposited data

How the results depend on the processing

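LCP2 205269_at and BTK kept their sign and their call under all 20 alternatives run for each, and LCP2 205270_s_at did so under its 17, at -2.98 to -1.67. BTK ranged from -1.14 to -0.49. LCP2 205269_at itself ranged from -3.68 to -2.30. The alternative that put the mean of the 6 LCP2 probe sets in its place gave -1.18. Of 54613 probe sets, 7611 were called, 73.6% of them lower. Hybridisation spike scaling gave 3430, poly-A spike scaling with the replicate block 11966, the brightest probe set per gene 4269, averaging the probe sets of each gene 3653, and probe sets without shared sequence 4486, the last 3 over fewer features. Of the calls, 54.6% were lower under quantile normalization and 11.6% under poly-A spike scaling. With arrays left out, the calls ran from 1619 (replicates 1 and 2 alone) to 6781, with 4947 without untreated replicate 3. Member probe sets called, 6 in the chosen setting, were 3 under hybridisation spike scaling and 3 of the genes by the mean of their probe sets, and 3 to 6 with arrays left out. Pathway genes called, 21 in the chosen setting, were 12 under hybridisation spike scaling and 10 to 20 with arrays left out. Signs turned under poly-A spike scaling for PLCG1 216551_x_at (0.40), CD3D (0.12), SYK 226068_at (0.07), LYN (0.12) and TFRC (0.02), and for uncalled probe sets of LAT2 (0.29 and 0.17), VAV1 (0.02), PLCG2 (204613_at 0.26, 1557993_at 0.13) and SYK (207540_s_at 0.27, 209269_s_at 0.21). That scaling raises each calactin array against the untreated array of its number, since its poly-A spike signal was lower (887, 1135 and 83.4 against 1297, 1896 and 112). Why the spike signals differed was not tested. With the replicate block 9908 probe sets and 7 member probe sets were called, and VAV1 was the member gained. Low signal limits the 4 dimmer LCP2 probe sets and the 3 dim PLCG2 ones: no call there does not show that their transcripts stayed level.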
